A study of Mus musculus with 24 samples.

Results

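Gngt2, Abi3 and 5 further genes for gamma subunits of heterotrimeric G proteins (Gng2, Gng5, Gng10, Gng11 and Gng12) were followed in brown adipose tissue (BAT) of 24 mice. The members were chosen from measured values: of the genes tested here, Gngt2 had the smallest p between genotypes at 8°C, Abi3 is the gene on the opposite strand whose exons overlap it, and the others are relatives of Gngt2. Of the 7 members, 4 (Gngt2, Gng5, Gng11 and Gng12) were found among the 12615 genes of the count table by Ensembl identifier, and all 4 were among the 12485 genes that passed the filter on low counts. Abi3, Gng2 and Gng10 are not analysed here.

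The 24 libraries came from whole interscapular BAT, with 6 mice in each combination of genotype and temperature. All mice carried floxed alleles of both corepressor genes, TBLR1 (Tbl1xr1) and TBL1 (Tbl1x), and all received tamoxifen. BATdKO mice also carried Ucp1CreERT2, a tamoxifen-inducible Cre recombinase under the Ucp1 promoter, which is active in brown adipocytes. The deletion was aimed at these cells, although the paper adds that early Ucp1 expression could extend it to progenitors. Cre- controls lacked Ucp1CreERT2. Mice were raised at 22°C and kept either for 4 days at 30°C or, after 1 day each at 18°C, 16°C and 12°C, for 6 days at 8°C by the labels. The methods text gives 3 days at 8°C. Mice were C57BL6/N. The labels describe females, whereas the methods text has both sexes and the legend for these data has males and fewer mice in a group. The labels also state the age at tamoxifen as 5 years, where the methods text has 5 weeks. Housing at the final temperatures began 3 weeks after the last injection.

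A heterotrimeric G protein passes the signal of a cell surface receptor, such as the β-adrenergic receptors that drive heat production in brown adipocytes, into the cell. Its alpha subunit binds the nucleotide, and its beta and gamma subunits form one stable dimer that holds the protein at the membrane and acts on effectors of its own. The gamma subunit is a small protein whose tail carries a lipid, added to a cysteine at the start of the last 4 codons. Gngt2 is known as the gamma subunit of transducin in cone photoreceptors. Abi3 belongs to the Abl interactor proteins of the actin-regulating WAVE complex and is best known from myeloid cells. BAT was sequenced whole, so fewer cells of a type and less RNA per cell cannot be told apart.

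The coding sequences of the 4 measured gamma subunits are shown because the last codons set which lipid a gamma subunit receives. They are from GENCODE vM21 on build GRCm38, on the plus strand, 5′ to 3′ from start to stop codon, and capitals mark the last 4 codons before the stop codon.

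Gngt2: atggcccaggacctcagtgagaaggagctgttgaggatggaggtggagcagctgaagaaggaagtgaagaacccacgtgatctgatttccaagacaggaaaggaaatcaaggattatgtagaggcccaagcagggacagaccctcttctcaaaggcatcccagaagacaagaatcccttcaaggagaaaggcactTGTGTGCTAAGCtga
Gng11: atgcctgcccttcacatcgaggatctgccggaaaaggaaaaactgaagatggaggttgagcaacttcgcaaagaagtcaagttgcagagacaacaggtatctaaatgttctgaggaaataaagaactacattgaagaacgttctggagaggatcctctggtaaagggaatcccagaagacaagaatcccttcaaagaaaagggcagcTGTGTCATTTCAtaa
Gng5: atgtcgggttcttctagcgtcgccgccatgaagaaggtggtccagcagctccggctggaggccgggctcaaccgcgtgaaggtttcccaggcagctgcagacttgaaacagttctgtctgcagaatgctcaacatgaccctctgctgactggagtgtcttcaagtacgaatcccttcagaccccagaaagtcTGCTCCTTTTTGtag
Gng12: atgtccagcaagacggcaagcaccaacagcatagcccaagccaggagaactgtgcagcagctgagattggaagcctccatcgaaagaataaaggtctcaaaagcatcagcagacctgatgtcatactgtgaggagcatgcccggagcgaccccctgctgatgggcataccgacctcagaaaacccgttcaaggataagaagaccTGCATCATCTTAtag

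In each of them the first capital codon encodes cysteine. The last capital codon of Gngt2 and Gng11 encodes serine, the ending that receives a farnesyl lipid, and that of Gng5 and Gng12 encodes leucine, the ending that receives a geranylgeranyl lipid. Gngt2 and Gng11 were also the most alike pair over the whole coding sequence, with 60.4% identical bases in a pairwise alignment, while the other 5 pairs had 51.3% to 56.3%. Coding lengths were 210 bases for Gngt2, 222 for Gng11, 207 for Gng5 and 219 for Gng12.

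Gngt2 lies on chromosome 11 (GRCm38, 95837216 to 95845734, plus strand) and Abi3 on the minus strand at 95830074 to 95842476. Their exons overlap in 2 places, 95837216 to 95837317 (102 bases) and 95842295 to 95842426 (132 bases). Together these make up 234 of the 1877 exon bases of Gngt2, or 12.5%. The libraries hold one tag near the 3′ end of a transcript, and the position of the overlaps relative to that end is therefore given. All 7 annotated Gngt2 transcripts end at the same base. Along the genome, introns included, this base is 3258 bases from the nearest Abi3 exon, and the nearer overlap ends 3308 bases before it. In a spliced transcript the overlap lies closer to the end, since all Gngt2 exons together hold 1877 bases. That distance was not computed. Abi3 shares far more exon sequence with the gene on its other side: 2913 of its 4153 exon bases (70.1%) are also exon of Zfp652. Whether reads were counted by strand is not given in the sources used here, and no read positions were analysed.

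**Figure D1:**
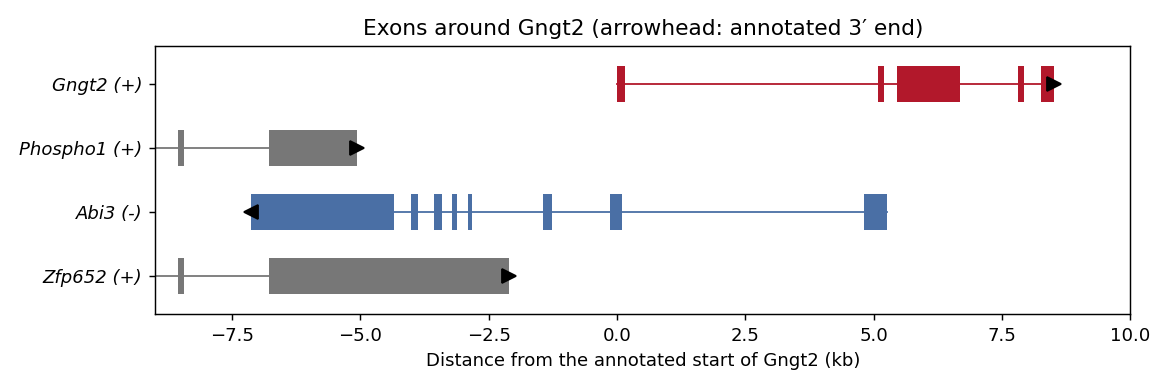
Exons of Gngt2, Abi3, Phospho1 and Zfp652 by distance from the annotated start of Gngt2 in kb. Boxes are exons of any annotated transcript, lines are the gene span, and arrowheads mark the annotated 3′ end, which for Gngt2 lies at the far right and for Abi3 at the far left.

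Of the other members, Gng5 lies on chromosome 3 (146499807 to 146505572, plus strand) and Gng11 on chromosome 6 (4003904 to 4008445, plus strand), and neither shares exon sequence with another gene. Gng12, on chromosome 6 (66896397 to 67021350, plus strand), shares exon sequence with 4930597O21Rik on the other strand.

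Total counts ranged from 699703 to 11527643 per library. The shallowest was Cre- mouse m4 at 30°C, in which Gngt2 had 8 counts, Gng11 6 and Gng12 10. The mice are called m1 to m6 within each group. Both deleted genes were higher, not lower, in libraries labelled BATdKO, so genotype here always means the label. At 30°C the m6 libraries of both genotypes stood apart from their groups in the direction of the other: Tbl1xr1 was 38.6 CPM (counts scaled to library size) in Cre- m6 against 16.5 to 24.6 in the 5 others, and 17.0 in BATdKO m6 against 29.8 to 42.0 in the 5 others. Results that rest on them are given with and without both libraries, a choice made after their values were seen. Levels below are CPM on library sizes normalised by edgeR's TMM method, and differences are log2 fold changes from one edgeR quasi-likelihood model of all 24 libraries. A gene passed where its Benjamini-Hochberg adjusted p over the 12485 tested genes was under 0.1.

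Gngt2 was lowest in Cre- mice at 8°C and highest in BATdKO mice at 8°C. Its level in Cre- mice at 8°C was 11.4, 13.4, 15.0, 13.5, 14.5 and 12.9 CPM in m1 to m6 (mean 13.4 ± 1.25 SD, n = 6). In BATdKO mice at 8°C it was 55.3, 43.7, 33.9, 38.8, 32.8 and 47.9 CPM (mean 42.1 ± 8.67 SD, n = 6). All 6 BATdKO mice lay above all 6 Cre- mice, and the gap between them, from 15.0 to 32.8 CPM, was wider than either SD. The fitted difference was 1.63 on the log2 scale (standard error 0.17), or 3.10-fold. This is the contrast on which Gngt2 was selected, so the difference is a description and no test is given.

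At 30°C Gngt2 was 16.8, 16.2, 16.8, 10.9, 16.8 and 30.7 CPM in Cre- m1 to m6 (mean 18.0 ± 6.61 SD, n = 6). In BATdKO mice it was 27.5, 24.5, 25.9, 24.0, 32.5 and 17.0 CPM (mean 25.2 ± 5.08 SD, n = 6). The groups overlapped through 2 libraries, since Cre- m6 lay among the BATdKO mice and BATdKO m6 among the Cre- mice. The levels at 30°C were not part of the difference that selected Gngt2, and this is the contrast in which it can be tested. The mice at 30°C did share in the filter, the normalisation and the estimate of spread behind the selecting p. The test is therefore not fully independent of the selection. The fitted difference was 0.40 (standard error 0.16, 95% interval 0.07 to 0.74), or 1.32-fold higher in BATdKO. It did not pass: edgeR's quasi-likelihood test gave an unadjusted p of 0.0206 and a Benjamini-Hochberg adjusted p of 0.371. A two-sided exact permutation test on the log2 CPM of this one gene, 6 mice against 6, gave p = 0.0476, where the smallest possible value was 0.00216.

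Without both m6 libraries the difference at 30°C was 0.71 (standard error 0.13), with an edgeR Benjamini-Hochberg adjusted p of 0.00217. The remaining 5 mice of each genotype did not overlap in Gngt2, which follows from leaving out the libraries through which the groups overlapped. The exact permutation test then gave p = 0.00794, the smallest possible for 5 against 5. That outcome was fixed by the choice, and nothing is read from it. The libraries left out are those in which Gngt2 itself lay opposite to its group. The difference of 0.71 and its adjusted p are therefore not independent of the choice either. Leaving out Cre- m6 alone gave a difference of 0.63 and an adjusted p of 0.0183 by edgeR.

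**Figure D2:**
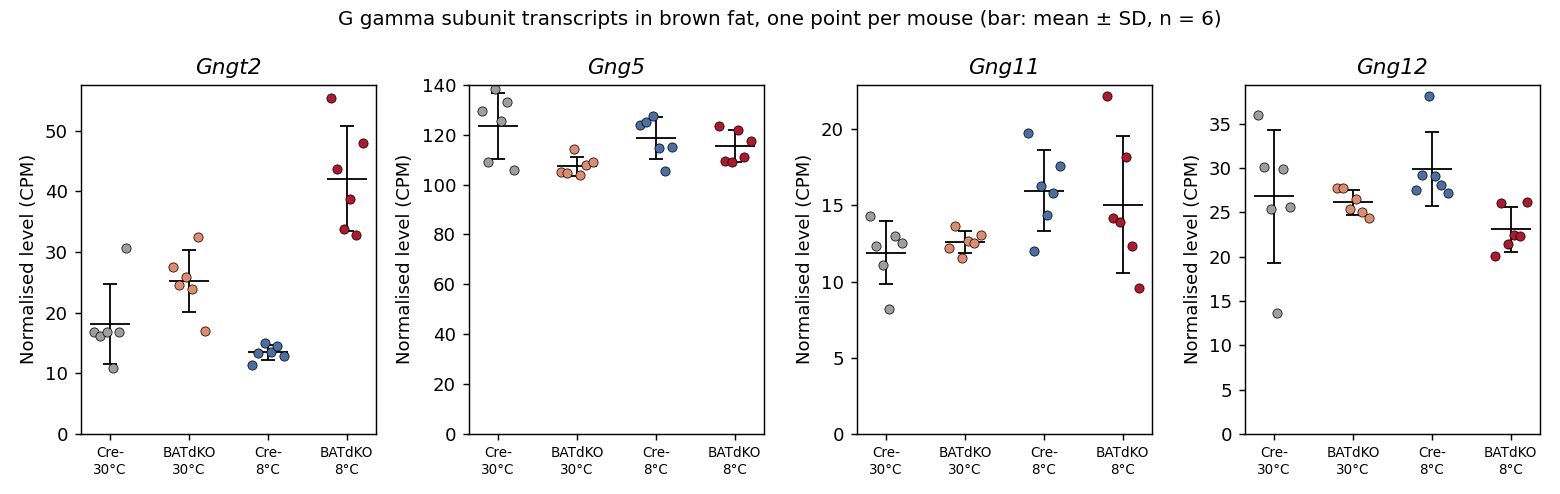
Normalised level in CPM of Gngt2, Gng5, Gng11 and Gng12 in the 4 groups, each axis starting at 0. Points are mice and bars are the mean ± SD (n = 6). Gngt2 in the 6 BATdKO mice at 8°C (32.8 to 55.3 CPM) lies above every other mouse, and a single point stands apart upward in Cre- at 30°C (30.7 CPM) and downward in BATdKO at 30°C (17.0 CPM).

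Between temperatures Gngt2 moved in opposite directions in the 2 genotypes. In Cre- mice it was lower at 8°C than at 30°C, with a fitted difference of -0.50 (standard error 0.17). The ranges overlapped only through the shallowest library, Cre- m4 at 30°C. In BATdKO mice Gngt2 was higher at 8°C by 0.73 (standard error 0.16), and the groups just failed to overlap, the highest mouse at 30°C having 32.5 CPM and the lowest at 8°C 32.8 CPM. The difference between the genotype effects at 8°C and 30°C was 1.23 (standard error 0.23). Each of these values shares mice with the selecting contrast and is a description. With both m6 libraries at 30°C left out they were -0.29 (standard error 0.13) in Cre-, 0.63 (standard error 0.11) in BATdKO and 0.91 (standard error 0.17) for the difference between the genotype effects. From low to high the order of the means was Cre- at 8°C, Cre- at 30°C, BATdKO at 30°C and BATdKO at 8°C, and the first 3 each overlapped their neighbour.

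Over the 24 mice Gngt2 and Tbl1xr1, one of the deleted genes, had a Pearson r of 0.86 in log2 CPM, and 0.59 after each group's mean was subtracted. The points share their libraries and their groups, and r is a description. Without both m6 libraries the same values were 0.87 and -0.067, so within groups the relation rested on those 2 libraries. For Tbl1x the corresponding values were 0.82 and 0.78, and 0.81 and 0.55 without both.

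**Figure D3:**
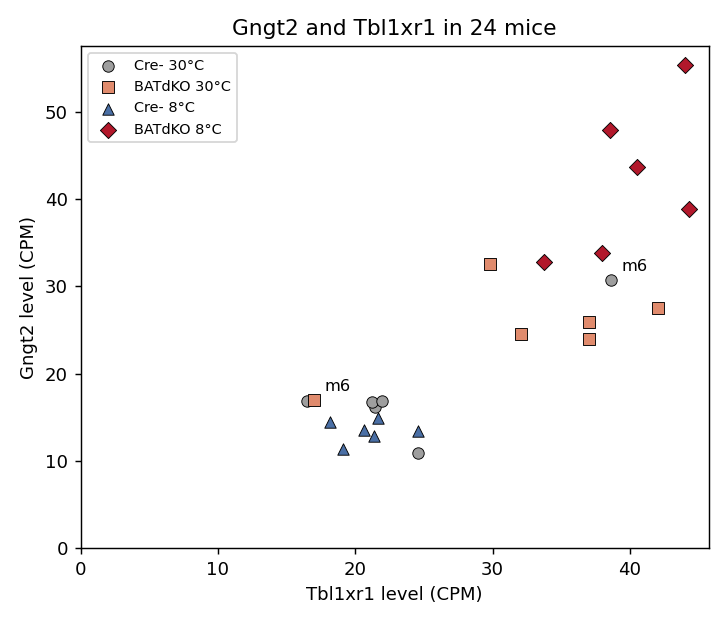
Gngt2 level against Tbl1xr1 level, both in CPM, in 24 mice marked by labelled genotype and temperature, with the m6 libraries at 30°C named. Cre- m6 at 30°C (Tbl1xr1 38.6, Gngt2 30.7 CPM) lies among the BATdKO mice and BATdKO m6 at 30°C (17.0 and 17.0 CPM) among the Cre- mice.

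Gng11, which shares the serine ending with Gngt2, has been described mostly in endothelial cells. Its level was 8.20 to 14.3 CPM in Cre- mice at 30°C (median 12.4) and 12.0 to 19.8 CPM in Cre- mice at 8°C (median 16.1). The fitted cold difference in Cre- mice was 0.36 (standard error 0.14), which did not pass (edgeR adjusted p = 0.145). In BATdKO mice the level was 11.5 to 13.7 CPM at 30°C (median 12.6) and 9.59 to 22.2 CPM at 8°C (median 14.0). The BATdKO mice at 8°C had the widest spread of the 4 groups, and their range enclosed that of the mice at 30°C. The cold difference in BATdKO was 0.21 (standard error 0.14, edgeR adjusted p = 0.475). Between genotypes Gng11 differed by 0.021 at 30°C (95% interval -0.27 to 0.31, edgeR adjusted p = 1.00), a difference that turned negative when Cre- m3, Cre- m4 or BATdKO m2 at 30°C was left out.

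Gng5 encodes a gamma subunit found in most tissues and had the highest CPM of the measured members in each of the 24 libraries. CPM of 3′ tags are not divided by transcript length, since one tag stands for one transcript. Its level was 129.4, 109.2, 138.3, 125.7, 133.2 and 105.9 CPM in Cre- m1 to m6 at 30°C (mean 123.6 ± 13.2 SD, n = 6). In BATdKO mice at 30°C it was 105.1, 104.8, 114.2, 103.8, 107.7 and 108.9 CPM (mean 107.4 ± 3.83 SD, n = 6). The groups overlapped in Cre- m2 and m6. The difference of -0.20 (standard error 0.07) had an unadjusted p of 0.00756 by edgeR and did not pass after adjustment (adjusted p = 0.28). Leaving out both m6 libraries made it -0.25 (standard error 0.07), and passed by edgeR with an adjusted p of 0.062. At 8°C the level was 105.6 to 127.4 CPM in Cre- and 109.1 to 123.7 CPM in BATdKO mice, which overlapped almost fully.

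Cold differences of Gng5 were -0.06 in Cre- mice (95% interval -0.20 to 0.09) and 0.10 in BATdKO mice (95% interval -0.04 to 0.25). Neither passed by edgeR (adjusted p = 0.734 and 0.484).

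Gng12 has the leucine ending, like Gng5. The level was 27.5, 29.3, 38.2, 29.1, 28.1 and 27.2 CPM in Cre- m1 to m6 at 8°C (mean 29.9 ± 4.15 SD, n = 6). In BATdKO mice at 8°C it was 20.0, 26.1, 21.4, 22.4, 22.4 and 26.2 CPM (mean 23.1 ± 2.52 SD, n = 6). The groups did not overlap, although the gap between 26.2 and 27.2 CPM was smaller than either SD. The fitted difference was -0.36 (standard error 0.12). Because it is the contrast that selected Gngt2, no p is given for Gng12 either, and it was not among the members that passed the adjusted threshold.

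At 30°C Gng12 was 13.7 to 36.1 CPM in Cre- mice, the lowest value coming from the 10 counts of the shallowest library, and 24.3 to 27.8 CPM in BATdKO mice. The genotype difference there was -0.12 (95% interval -0.35 to 0.12, edgeR adjusted p = 0.789). Cold differences were 0.07 in Cre- mice (95% interval -0.16 to 0.30, edgeR adjusted p = 0.951) and -0.17 in BATdKO mice (95% interval -0.41 to 0.07, edgeR adjusted p = 0.488). The value in Cre- turned negative when Cre- m3 at 8°C was left out. The difference between the genotype effects at 8°C and 30°C was -0.24 for Gng12, -0.14 for Gng11 and 0.16 for Gng5, and none passed by edgeR (adjusted p = 0.736, 0.906 and 0.696).

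Counted over the 4 measured members, 1 (Gngt2) passed the adjusted threshold between genotypes at 8°C, where 1.82% of all tested genes did, and 2 (Gngt2 and Gng12) had an unadjusted p under 0.05, where 9.24% did. The same 2 members had groups that did not overlap, against 1.95% of all tested genes. As this contrast made the choice, nothing is read from these counts. Between genotypes at 30°C, 0 of 4 passed, and 0% of all genes did by edgeR. Unadjusted, 2 of 4 (Gngt2 and Gng5) had p under 0.05, against 10.4% of all genes, and DESeq2 called 90 genes and 0 members.

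With cold in Cre- mice 1 of 4 passed (Gngt2, lower), where 9.15% of all genes did, and 2 of 4 (Gngt2 and Gng11) did unadjusted, where 18.6% did. The call of Gngt2 there ended without both m6 libraries, with only the groups compared, and in 6 of the 24 fits that left out 1 mouse. With cold in BATdKO mice 1 of 4 passed (Gngt2, higher), where 7.07% did, and 1 of 4 did unadjusted, where 17.2% did. Gngt2 was also the 1 member whose groups did not overlap there, against 2.99% of all genes. For the difference between genotype effects 1 of 4 passed (Gngt2), where 0.0961% of all genes did, and 1 of 4 did unadjusted, where 8.05% did. The calls of Gngt2 in both cold contrasts and in this one share mice with the contrast that selected it, and nothing is read from them. The 2 cold contrasts share no mice with each other, but both share mice with the genotype contrasts.

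**Figure D4:**
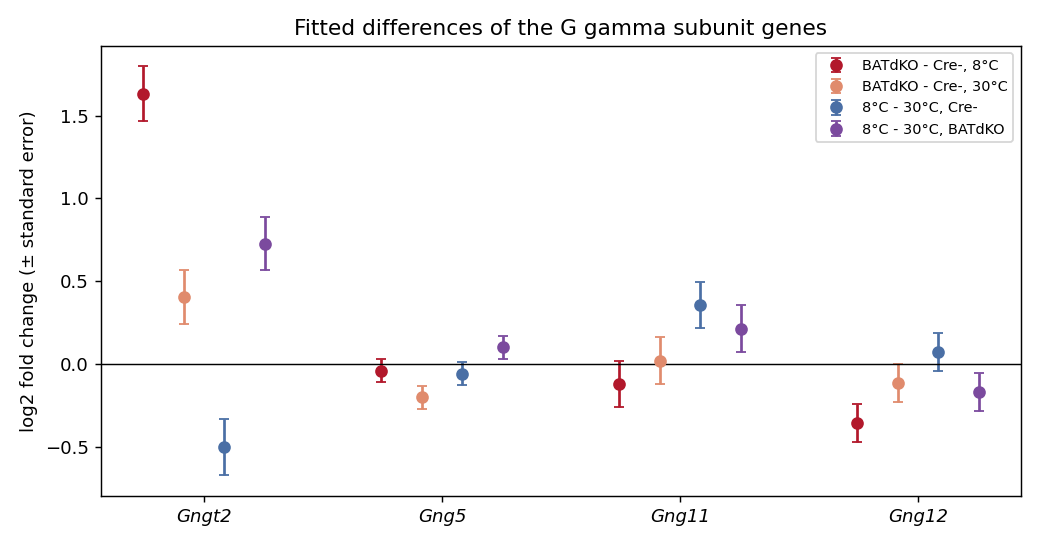
Fitted log2 fold change ± standard error of the 4 measured members between genotypes at 8°C and at 30°C and between temperatures in each genotype. Gngt2 ranges from -0.50 to 1.63, whereas the values of Gng5, Gng11 and Gng12 lie between -0.36 and 0.36.

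Partners of the gamma subunits were counted next. The lists were put together with earlier results of these data known, and their counts are a description. Of the 5 G beta genes, 4 were measured (Gnb1, Gnb2, Gnb4 and Gnb5), and 0 passed in any contrast by edgeR or DESeq2. Unadjusted, none of the 4 had a p under 0.05 by edgeR. Their median difference was -0.14 between genotypes at 8°C, all 4 below 0, against -6.1e-05 over all genes, and 0.15 with cold in Cre-, all 4 above 0, against -0.020 over all genes. The largest value was that of Gnb2 with cold in Cre- mice, 0.61 (standard error 0.31, edgeR adjusted p = 0.288). With both m6 libraries left out, 1 of the 4 passed with cold in Cre- mice.

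Of 16 G alpha genes 11 were measured. Gnai1, one of the inhibitory alpha subunits that restrain adenylyl cyclase, was higher in BATdKO mice at 8°C, at 27.4 ± 3.34 CPM against 13.6 ± 2.48 CPM in Cre- mice (SD, n = 6 each). Its ranges, 23.9 to 31.6 and 10.7 to 17.9 CPM, did not overlap, and the difference was 1.00 (standard error 0.18, edgeR adjusted p = 0.00287). At 30°C the difference of Gnai1 was 0.50 (standard error 0.18), which did not pass by edgeR (adjusted p = 0.317) with all libraries and did without both m6 libraries (0.68, adjusted p = 0.0527). Other subunits of the inhibitory family did not follow it. Gnai2 had a mean of 121.8 CPM in Cre- and 123.2 CPM in BATdKO mice at 8°C, a difference of 0.017, and Gnai3 differed by -0.09. Gnao1 differed by -0.63 at 8°C (edgeR adjusted p = 0.31). At 30°C without both m6 libraries Gnao1 passed in the lower direction (-0.77, edgeR adjusted p = 0.0543). Gnas, the stimulatory alpha subunit downstream of the β-adrenergic receptors, rose with cold in both genotypes. It was 3.03 ± 0.60 CPM at 30°C and 9.84 ± 3.02 CPM at 8°C in Cre- mice, and 3.73 ± 1.05 and 11.0 ± 4.66 CPM in BATdKO mice (SD, n = 6 each). The differences were 1.67 (standard error 0.26, edgeR adjusted p = 0.000112) and 1.52 (standard error 0.26, adjusted p = 0.000477). Between genotypes Gnas did not pass at either temperature. Median differences over the 11 were -0.033 between genotypes at 8°C, -0.025 at 30°C, 0.080 with cold in Cre- and 0.12 with cold in BATdKO.

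RGS proteins speed up the hydrolysis of GTP by alpha subunits and so end the signal. Of 20 genes 8 were measured, and 6 of the 8 passed with cold in Cre- mice by edgeR, where 9.15% of all genes did. Rgs4, Rgs5, Rgs7 and Rgs12 rose, by 0.94, 0.58, 1.12 and 0.98, and Rgs2 and Rgs3 fell, by 1.77 and 0.62 on the log2 scale. Rgs3 no longer passed without both m6 libraries (-0.40, edgeR adjusted p = 0.167). Rgs12 and Rgs4 are low genes, at 1.12 and 1.95 CPM in Cre- mice at 30°C. With cold in BATdKO mice 1 of 8 passed (Rgs4, 0.85), where 7.07% of all genes did. Rgs2 was 28.1 to 42.4 CPM in Cre- mice at 8°C and 82.0 to 130.7 CPM in BATdKO mice at 8°C, so that the groups did not overlap. That difference was 1.40 (standard error 0.21, edgeR adjusted p = 0.000285), and at 30°C it was 0.18 (standard error 0.20, adjusted p = 0.825). The difference of Rgs2 between the genotype effects at 8°C and 30°C was 1.21 (standard error 0.29) and did not pass by edgeR (adjusted p = 0.126). By DESeq2, 1 of the 8 RGS genes passed for the difference between genotype effects, and 2 passed between genotypes at 8°C, all higher. With cold in BATdKO mice DESeq2 called 1 RGS gene higher and 1 lower. Over all genes DESeq2 called 51, 261 and 904 in these contrasts.

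Among effectors and partners of the beta-gamma dimer, 9 of 20 genes were measured and 0 passed between genotypes at either temperature (1 at 30°C without both m6 libraries). With cold in Cre- mice 3 of the 9 passed by edgeR, all higher, where 9.15% of all genes passed. The receptor kinase Grk3 rose by 1.30 (adjusted p = 0.00594), and the phospholipases Plcb4 by 0.72 (adjusted p = 0.00706) and Plcb1 by 0.26 (adjusted p = 0.0703). Plcb1 no longer passed there without both m6 libraries (0.22, edgeR adjusted p = 0.137). With cold in BATdKO mice 2 of the 9 passed, where 7.07% of all genes did. Grk3 rose there by 0.99 (adjusted p = 0.0373) and Plcb1 by 0.29 (adjusted p = 0.0501) in the same edgeR model. All 6 enzymes that process the gamma tail were measured, namely Fnta, Fntb and Pggt1b, which form the farnesyl and geranylgeranyl transferases, Rce1 and Zmpste24, which cut the tail, and Icmt, which methylates it. None of the 6 passed in any contrast by edgeR or DESeq2. Fntb with cold in Cre- mice (-0.38, standard error 0.18) was the only one below an unadjusted 0.05 in any contrast by edgeR.

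Abi3 is not analysed here, and the other genes of its complex were counted. Of 13 Abi and WAVE complex genes 10 were measured, and 0 passed between genotypes. The relatives Abi1 and Abi2 differed by -0.017 (95% interval -0.28 to 0.25) and 0.15 (95% interval -0.14 to 0.44) at 8°C. With cold Rac2, a GTPase of blood cells that acts on the complex, fell in Cre- mice by 0.75 (edgeR adjusted p = 0.0144), and Wasf2, one of the WAVE proteins, fell in BATdKO mice by 0.30 (edgeR adjusted p = 0.0227).

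**Figure D5:**
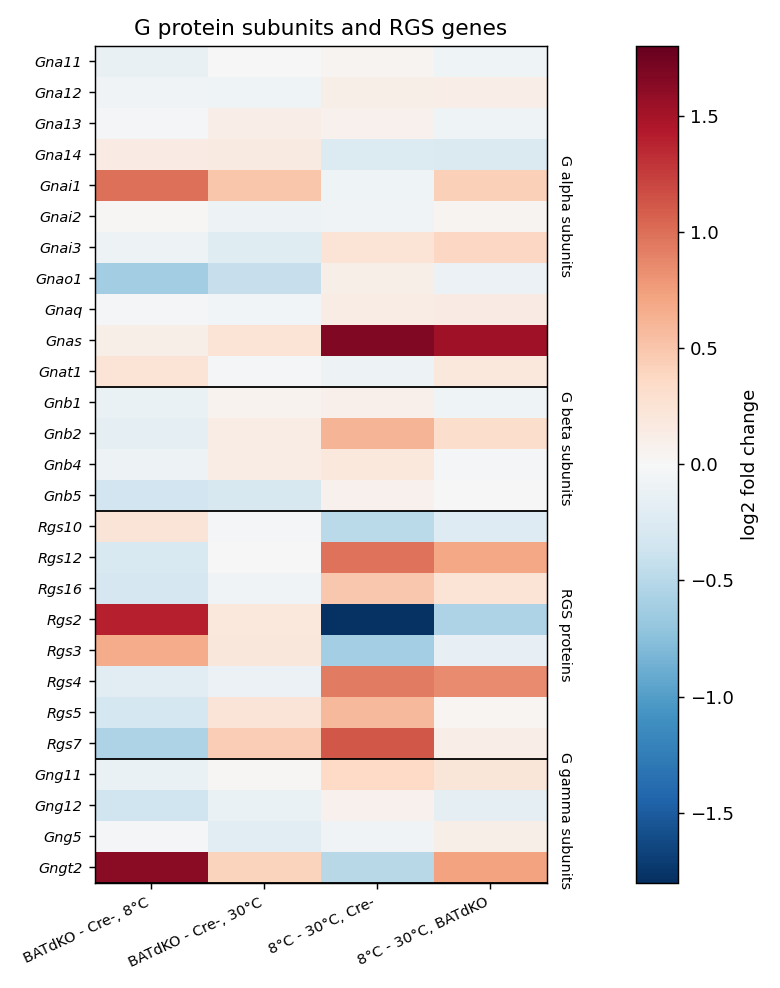
Log2 fold change of the measured G alpha, G beta, RGS and G gamma genes (rows) in the 4 contrasts (columns), red for higher and blue for lower in the first-named group. Gngt2 (1.63), Rgs2 (1.40) and Gnai1 (1.00) have the highest values between genotypes at 8°C, and Gnas has the highest values with cold (1.67 and 1.52).

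Around Gngt2, 21 annotated genes lie within 200 kb, of which 4 were measured (Phb, Gm26830, Zfp652 and Snf8). None of the 4 passed between genotypes at either temperature by edgeR. Phb, which encodes the mitochondrial protein prohibitin, rose with cold in Cre- mice by 0.31 (adjusted p = 0.0328) and in BATdKO mice by 0.45 (adjusted p = 0.00175). Zfp652, the nearest measured gene at 2100 bases, did not pass in any contrast.

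Marker genes of the cells of BAT were summed per library. All 10 of 10 brown adipocyte markers, among them Ucp1, were measured, and their sum was 614 to 2385 CPM in Cre- and 1007 to 2000 CPM in BATdKO mice at 30°C, with Cre- m6 the highest and BATdKO m6 the lowest of their groups. At 8°C it was 2001 to 3632 and 2416 to 3750 CPM. Ucp1 made up much of the sum, with means of 1539 ± 374.7 CPM in Cre- and 1685 ± 293.5 CPM in BATdKO mice at 8°C (SD, n = 6 each). Adrb3, the β3-adrenergic receptor, was 41.1 to 57.2 CPM in Cre- and 14.6 to 34.6 CPM in BATdKO mice at 8°C, without overlap, a difference of -0.98 (edgeR adjusted p = 0.0592). Adipoq differed by -0.48, which did not pass by edgeR (adjusted p = 0.302). Over all 10 brown adipocyte markers at 8°C, 6 differences were above 0 and 4 below (median 0.10), and only Adrb3 passed. For macrophages and monocytes, 12 of 16 markers summed to 200 to 299 CPM in Cre- and 234 to 266 CPM in BATdKO mice at 8°C, and to 202 to 291 and 254 to 293 CPM at 30°C. For endothelium, 10 of 10 markers summed to 290 to 368 and 290 to 349 CPM at 8°C. Between genotypes at 8°C, 10 of the 12 macrophage and monocyte markers were above 0 (median 0.05), and 7 of the 10 endothelial markers were below 0 (median -0.07). None of these passed by edgeR. The sums of both lists overlapped between the genotypes at 8°C. So did those of pericytes and smooth muscle (7 of 8 markers), at 45.1 to 65.9 CPM in Cre- and 34.2 to 47.9 CPM in BATdKO mice, although the fitted differences of all 7 were below 0 (median -0.44), and those of fibroblasts and progenitors (8 of 8 markers), at 182.8 to 308.4 and 171.5 to 201.0 CPM, with 7 of the 8 below 0 (median -0.40). None of the genes of these last lists passed between genotypes at 8°C by edgeR, and unadjusted 2 and 1 had a p under 0.05. Of the lymphocyte list only 1 of 10 genes was measured, Ptprc, which leukocytes in general express, so lymphocytes were not assessed. Across the 24 libraries Gngt2 had r = -0.017 with Ptprc, -0.026 with Csf1r of macrophages, -0.024 with Pecam1 of endothelium and -0.29 with Adipoq. After group means were subtracted these were -0.038, -0.23, -0.096 and 0.355. Without both m6 libraries the values after subtraction were -0.028, 0.11, 0.135 and 0.384, so those of Csf1r and Pecam1 changed sign. Before subtraction they were -0.0096, 0.050, 0.020 and -0.32 without both. These markers are single genes, and r is a description.

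For the Schwann and neural list, of which 2 of 5 markers were measured (S100b and Mbp), the sums did separate the genotypes, at 33.9 to 61.4 CPM in Cre- and 13.5 to 21.7 CPM in BATdKO mice at 8°C. S100b differed by -1.77 (edgeR adjusted p = 0.00109) without overlap, at 26.7 to 52.9 CPM in Cre- and 8.63 to 15.7 CPM in BATdKO mice. Mbp differed by -0.40 (edgeR adjusted p = 0.525) with overlap, at 6.94 to 10.6 and 3.485 to 8.455 CPM. The separation of the sums therefore rested on S100b, a single gene, and is not read as a difference in Schwann or neural cells. With cold in Cre- mice S100b rose by 1.71 (edgeR adjusted p = 0.000313), against 0.05 for Mbp. Skeletal muscle markers (9 of 10) summed to 4.10 to 7899 CPM in Cre- mice at 30°C, the highest being m3. In BATdKO mice at 30°C they summed to 18.8 to 539.7 CPM. At 8°C the sums were 4.22 to 1286 CPM in Cre- and 2.74 to 134.8 CPM in BATdKO mice. The fitted genotype differences of all 9 were below 0 at 8°C (median -2.99) and at 30°C (median -3.42). None passed by edgeR, although 7 at 8°C and 9 at 30°C had an unadjusted p under 0.05. Gngt2 in Cre- m3 at 30°C was 16.8 CPM, the median of its group. The part of these lists in the results on the members was not tested further.

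The genes most like Gngt2 over all 24 libraries, by Pearson r in log2 CPM, were Socs2 (0.92), Lrrn4 (0.90), Dgat2 (0.90), Elmod2 (0.87) and Irs2 (0.87). Leaving out any 1 mouse kept these between 0.84 and 0.93. These r include the differences between groups, among them the contrast that selected Gngt2. Each of the 5 genes also passed in that contrast by edgeR, and r is a description. Socs2 encodes an inhibitor of cytokine signalling, Dgat2 the enzyme of the last step of triglyceride synthesis and Irs2 an adaptor of the insulin receptor. After group means were subtracted the highest values were those of Mrpl45 (0.85), Dgat2 (0.82), Socs2 (0.80), Uqcc3 (0.79) and Cidec (0.79), a lipid droplet protein. Spearman rho for these ranged from 0.49 to 0.71. Leaving out both m6 libraries gave 0.64, 0.57, 0.60, 0.57 and 0.44. Over all libraries the other measured members had r with Gngt2 of -0.31 for Gng5, 0.08 for Gng11 and -0.23 for Gng12. The genes named above were picked as the highest of all tested genes, so lower values here follow from that choice. After group means were subtracted the members had -0.205, 0.25 and 0.38. Without both m6 libraries these were 0.22, 0.33 and 0.53, where the genes named above for that measure had 0.44 to 0.64.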

How the data were processed

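BAT RNA of 24 mice was measured with a 3′ tag kit. The authors used only forward reads, which were trimmed (BBDuk), mapped to GRCm38 (STAR) and summed by gene (Rsubread), and the deposited values are counts with no normalisation. The annotation release, the strand setting of the counting and the rule that left low genes out are not given in the sources used here. The authors removed outlier libraries that they did not name, and all 24 were used here. Of 12615 identifiers 12608 were matched to a symbol. Total counts ranged from 699703 to 11527643 per library.

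The deposited counts were fitted in R 4.3.3 with edgeR 4.0.16 (limma 3.58.1), using TMM, filterByExpr on the 4 groups, a quasi-likelihood model with one mean per group and Benjamini-Hochberg adjustment over the 12485 tested genes, with the study's threshold of 0.1. Standard errors are the log2 fold change over the square root of F, and for genes that vary less than Poisson sampling edgeR uses the larger of its p and a Poisson p. Log2 CPM used a prior count of 2. The code was tested on simulated data.

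The members and all gene lists were chosen with earlier results of these data known. Named were the members, genes of the pathway lists past the threshold in any contrast (at most 6 per list, by smallest p) or in lists with 6 or fewer measured genes, the genes within 200 kb of Gngt2, the 5 most correlated genes by 2 measures, and both deleted genes. The markers Ptprc, Csf1r, Pecam1, S100b, Mbp, Ucp1, Adrb3 and Adipoq and the alpha subunits Gnai2, Gnai3 and Gnao1 were added after their values were seen. The planned ratio of Gngt2 to Abi3 and the genes most like Abi3 are not analysed here. Alternatives were DESeq2 1.42.0 (the study's tool), RLE factors, no filter, a mean normalised count of at least 10, robust dispersion, only the groups compared, and leaving out each mouse. Leaving out both m6 libraries at 30°C, alone or with the shallowest library, was added after the data were seen. Mice are named m1 to m6 by their number in the labels, which pairs no mice. Sequences and positions are from GENCODE vM21.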

Additional observations from a re-analysis of the deposited data

Results flagged for a closer look

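Gngt2 in Cre- m6 at 30°C was 30.7 CPM, where the nearest of the 5 others was 16.8 CPM. Its gap was 0.70 of the range of the group, above Dixon's 95% limit for a group of 6. In the same library Tbl1xr1 was 38.6 CPM, above the 16.5 to 24.6 CPM of the others, and the effect of leaving it out is given with the genotype difference at 30°C. Gng12 in Cre- m3 at 8°C was 38.2 CPM, where the nearest was 29.3 CPM, a gap of 0.81 of the range. Chance alone gives such a gap in about 1 of 20 groups, and 16 groups were examined.

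The genotype difference of Gngt2 at 8°C exceeded that at 30°C by 1.23 on the log2 scale (standard error 0.23), and was flagged because the difference itself passed the adjusted threshold in edgeR. It holds the contrast on which Gngt2 was selected and is no independent test.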

How the results depend on the processing

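DESeq2, RLE factors, no filter, the mean count of 10 and robust dispersion left the number of members that passed as it was in every contrast. With only the groups compared, 2 members passed between genotypes at 8°C and 0 with cold in Cre-. Without both m6 libraries at 30°C, 2 members (Gngt2 and Gng5) passed between genotypes at 30°C and 0 with cold in Cre-, and the Gngt2 difference at 30°C was 0.71. With the shallowest library also left out, 2 passed at 8°C, 2 at 30°C and 0 with cold in Cre-, Gngt2 at 30°C was 0.68, Gng11 at 30°C turned to -0.018 and Gng12 with cold in Cre- to -0.038. Leaving out single mice gave 1 to 2 members at 8°C, 0 to 2 at 30°C and 0 to 2 with cold in Cre-. Gngt2 at 30°C then ranged from 0.32 to 0.63 and passed only without Cre- m6 at 30°C. Gng11 at 30°C ranged from -0.012 to 0.076, and Gng12 with cold in Cre- from -0.0072 to 0.16. The Gngt2 cold difference in Cre- did not pass without Cre- m6 at 30°C (-0.27) or without any of Cre- m1, m2, m4, m5 and m6 at 8°C. Gng11 with cold in Cre- passed without Cre- m2 at 8°C (0.42) or without BATdKO m1 or m6 at 8°C. Over all genes, calls between genotypes at 30°C were 0 by edgeR, 90 by DESeq2, 500 without both m6 libraries and 546 without the shallowest as well. Calls at 8°C were 227, 477 with only the groups compared and 138 without BATdKO m5 at 8°C. Leaving out single mice gave 0 to 369 calls between genotypes at 30°C (369 without Cre- m6 at 30°C), 7 to 37 for the difference between genotype effects and 574 with cold in BATdKO without BATdKO m4 at 8°C, against 883. For the difference between genotype effects they were 12, 51 by DESeq2, 21 with robust dispersion and 44 without the m6 libraries. Calls with cold in Cre- were 1143, and 1766 without the m6 libraries and the shallowest. Apart from what leaving libraries out changes by construction, the cause of these shifts was not tested. No paired analysis was possible because the mouse numbers pair no mice. Low depth limits Gngt2, Gng11 and Gng12 most in the shallowest library, where each had at most 10 counts.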
